A study of Mus musculus with 2 samples.

Results

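The genes described here encode the subunits of the mouse proteasome with its activators, its inhibitor and its assembly chaperones. They were chosen by symbol, as every gene whose symbol begins with Psm, a letter from a to g and a number and that has at least 1 protein-coding transcript in the annotation. The rule used no measured value. It found 50 genes among 55536 gene rows, of which 22015 are nuclear protein-coding genes, and it left out 4 further matches without a protein-coding transcript (Psmb5-ps, Psmb6-ps, Psmb6-ps2 and Psmb7-ps2). Among the 50, Psmc3ip matches by its name only, since its product Hop2 works in meiotic recombination and is no proteasome subunit.

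The proteasome degrades proteins that carry ubiquitin chains. Its 20S core is a barrel of alpha rings around beta rings, and the beta1, beta2 and beta5 subunits hold the proteolytic sites. The 19S regulatory particle has a base with a ring of ATPases that unfolds substrates and a lid that removes ubiquitin. In immune cells, and after interferon in other cells, the subunits beta1i (Psmb9), beta2i (Psmb10) and beta5i (Psmb8) can replace their constitutive partners beta1 (Psmb6), beta2 (Psmb7) and beta5 (Psmb5). The resulting immunoproteasome favours peptides that load onto class I molecules, and the PA28 activator (Psme1 and Psme2) opens the core's gate. Macrophages are known to carry both forms.

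The RNA came from bone marrow-derived macrophages, which are primary macrophages grown from marrow, of mouse strain C57BL/6J. Both libraries belong to 1 group, in which the cells had received 100 ng/ml Lipid A, the part of bacterial lipopolysaccharide that activates the receptor TLR4, for 50 minutes. Total RNA depleted of ribosomal RNA was taken from the nucleoplasm per the description, whereas the source label says nuclear fraction, and the libraries were started with 500 ng of RNA (replicate 1) and 1 µg (replicate 2). Both replicates carry the same donor label, and age and sex were not collected. Untreated cells were not analysed here, which means that no value below is a response to Lipid A and that no test between groups was possible. The gene tables held 10342882 expected counts in gene rows in replicate 1 and 20495545 in replicate 2. All 6 macrophage markers of a fixed list (Adgre1, Csf1r, Cd68, Lyz2, Mpeg1 and Itgam) reached 1 TPM (transcripts per 1000000) in each replicate, and they summed to 2999 and 2586 TPM. The 3 T cell markers summed to 0 and 0.06 TPM, the 3 B cell markers to 0.33 and 0.28 TPM, and the 4 neutrophil markers to 2.59 and 2.47 TPM. Cd3e, Cd3g and Ly6g were at 0 counts in both libraries, which allows up to 0.290 CPM (counts per 1000000 counts in gene rows) in replicate 1 and 0.146 CPM in replicate 2, taking 3 counts as the limit.

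The levels below rest on reads from nuclear RNA, in which unspliced and partly spliced RNA can be abundant. The splice sites shown here are those at which an annotated retained-intron isoform runs on from a coding exon into the intron, or from the intron into the exon, for the catalytic subunits that have such an isoform. They are given because much of the signal of these genes lies in such isoforms. Each sequence is from the GENCODE M21 transcripts on mm10, 25 bases on each side of the site, 5′ to 3′, with the intron in capitals and the exon in lower case.
Psmb9, isoform Psmb9-201, intron 1 donor, chr17:34187225-34187274, minus strand: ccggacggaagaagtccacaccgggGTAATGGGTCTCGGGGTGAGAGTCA
Psmb10, isoform Psmb10-205, intron 4 acceptor, chr8:105936957-105937006, minus strand: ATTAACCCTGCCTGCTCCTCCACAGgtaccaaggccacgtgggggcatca
Psmb8, isoform Psmb8-205, intron 3 donor, chr17:34199356-34199405, plus strand: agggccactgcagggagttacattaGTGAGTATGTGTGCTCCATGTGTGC
Psmb6, isoform Psmb6-202, intron 4 acceptor, chr11:70527154-70527203, plus strand: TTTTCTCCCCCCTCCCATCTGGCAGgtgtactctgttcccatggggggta
Psmb7, isoform Psmb7-202, intron 6 donor, chr2:38613407-38613456, minus strand: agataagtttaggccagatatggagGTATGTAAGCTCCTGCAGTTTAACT
Psmb5 has no annotated noncoding isoform. The Psmb8 isoform keeps an intron of 190 bases whole, and the Psmb9 isoform keeps 2 of 5 introns whole. The Psmb10, Psmb6 and Psmb7 isoforms keep no intron whole and each run part of the way into 1 intron.

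The promoters of the beta1 and beta5 pairs are shown. The beta2 pair is left out because no promoter window was available for Psmb7. The windows are from RefSeq on GRCm38.p6, the assembly of mm10, and run from 250 bases before RefSeq's start of the gene to 50 bases after it. Capitals mark every match, on either strand, to any of 5 motifs, which are the interferon response motif GAAANNGAA, the NF-kB motif GGGANNTTC, the GAS motif TTCNNNGAA, the CCAAT box CCAAT and the antioxidant response core TGANNNNGC (bound by NRF factors, which control proteasome genes). The antioxidant core and the other motifs were searched separately and matches may overlap.
Psmb9 promoter, chr17:34187281-34187580, minus strand: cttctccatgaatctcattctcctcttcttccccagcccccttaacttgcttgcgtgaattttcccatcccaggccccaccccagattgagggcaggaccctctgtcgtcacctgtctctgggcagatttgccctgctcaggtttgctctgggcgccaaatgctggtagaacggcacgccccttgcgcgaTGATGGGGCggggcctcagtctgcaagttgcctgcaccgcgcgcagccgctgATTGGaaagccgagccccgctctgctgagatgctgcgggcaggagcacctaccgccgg
Psmb6 promoter, chr11:70525107-70525406, plus strand: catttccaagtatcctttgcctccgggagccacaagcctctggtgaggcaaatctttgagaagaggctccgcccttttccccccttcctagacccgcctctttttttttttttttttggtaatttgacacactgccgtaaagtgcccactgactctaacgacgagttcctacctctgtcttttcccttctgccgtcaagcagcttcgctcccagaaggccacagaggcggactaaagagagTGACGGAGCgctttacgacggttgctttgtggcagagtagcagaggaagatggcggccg
Psmb8 promoter, chr17:34197945-34198244, plus strand: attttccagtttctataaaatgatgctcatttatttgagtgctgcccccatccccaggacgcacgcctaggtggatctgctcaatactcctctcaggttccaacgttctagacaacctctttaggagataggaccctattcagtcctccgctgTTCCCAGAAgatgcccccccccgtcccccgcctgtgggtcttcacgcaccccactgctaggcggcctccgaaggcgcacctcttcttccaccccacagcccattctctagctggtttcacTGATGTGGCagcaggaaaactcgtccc
Psmb5 promoter, chr14:54617946-54618245, minus strand: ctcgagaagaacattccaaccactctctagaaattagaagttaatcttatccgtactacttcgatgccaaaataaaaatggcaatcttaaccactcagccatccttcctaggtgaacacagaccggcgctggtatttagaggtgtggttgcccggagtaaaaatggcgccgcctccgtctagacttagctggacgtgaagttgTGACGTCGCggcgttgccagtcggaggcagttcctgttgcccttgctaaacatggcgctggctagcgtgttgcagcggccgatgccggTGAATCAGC
The Psmb8 window holds 1 GAS match, TTCCCAGAA, at 97 bases before the start, and the Psmb9 window 1 CCAAT box match on the other strand. All 4 windows hold the antioxidant core, and none holds the interferon or NF-kB motif in these letters. The Psmb8 and Psmb9 windows lie wholly inside the GENCODE spans of these genes. Sequence before the GENCODE starts of Psmb8 and Psmb9 was therefore not searched. The Psmb10 window holds none of the 5 motifs. Psmb7 has no entry in the promoter table. Of the 50 genes, 42 matched the table, with 45 windows. The antioxidant core was in 26 of the 45 windows (57.8%), against 41.3% of all 32851 windows in the table. The interferon motif was in 7 (15.6%), those of Psmb3, Psmb4, Psmc2, Psmd4, Psmd9, Psme1 and Psmg4, against 8.56% of all windows. The CCAAT box was in 15 (33.3%) against 37.4%, the GAS motif in 3 (6.67%) against 8.30%, and the NF-kB motif in 2 (4.44%), those of Psma6 and Psme4, against 3.94%. A match is a string of letters and was not tested as a binding site.

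Nearly the whole particle was represented in the nuclear RNA. Of the 50 genes 42 (84.0%) reached 1 TPM in each replicate, against 38.7% of all nuclear protein-coding genes. The 8 others were the 4 20S assembly chaperones Psmg1 to Psmg4, the inhibitor Psmf1, the tissue-specific subunits Psma8 and Psmb11, and Psmc3ip. Every gene of the standard core, the base and the lid, the 3 immunoproteasome subunits, the 5 activator genes and the 3 base chaperones were above that level in both replicates. The 50 genes summed to 709.3 TPM in replicate 1 and 567.4 TPM in replicate 2. Their median was 9.33 and 7.02 TPM, against 7.82 and 5.12 TPM over the 9158 protein-coding genes with a mean of at least 1 TPM and 0.33 and 0.24 TPM over all protein-coding genes. Without length correction the order against the expressed genes turned, with a median of 3.63 for the proteasome genes and 4.30 for the 9158 genes on the log2(CPM + 1) scale. In bulk RNA, fewer cells that make a transcript and less of it per cell cannot be told apart.

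**Figure D1:**
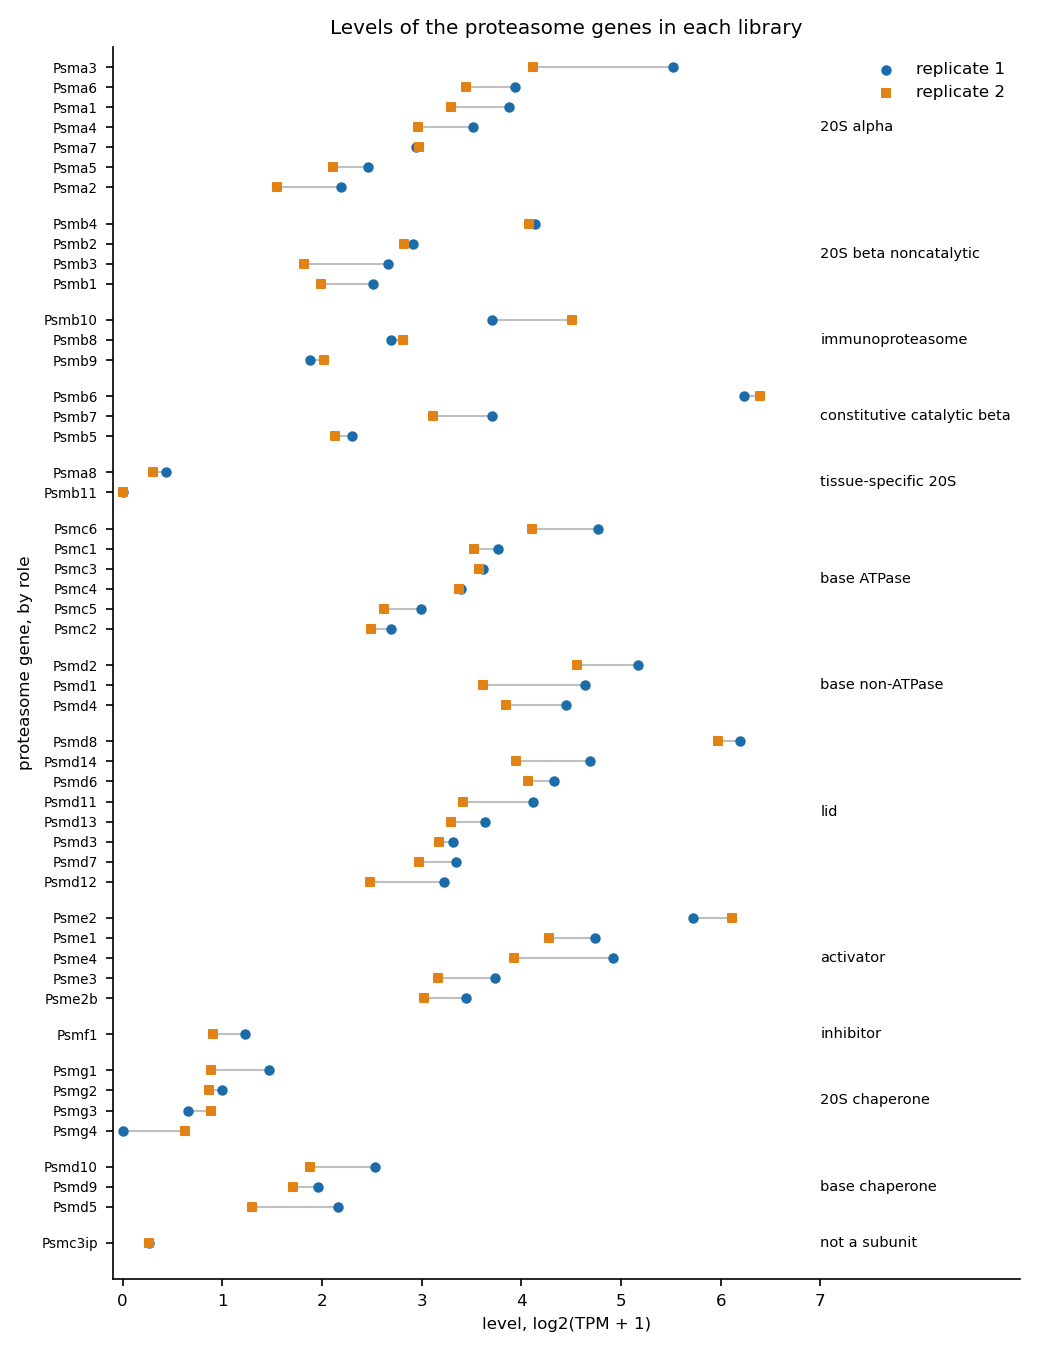
Level of each proteasome gene as log2(TPM + 1) in replicate 1 (circles) and replicate 2 (squares), grouped by role and sorted by mean TPM within a role. Psmb6, Psmd8 and Psme2 stand highest, and the 4 Psmg chaperones, Psmf1, Psma8, Psmb11 and Psmc3ip are the lowest by mean TPM.

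Genes of other large complexes, chosen by symbol, gave a scale for these levels. On the log2(TPM + 1) scale the proteasome genes had a median level of 3.37 in replicate 1 and 3.002 in replicate 2. The 80 cytosolic ribosomal protein genes had 4.84 and 4.79, and the 94 nuclear genes of the respiratory chain list had 2.51 and 2.24. The proteasome genes thus lay between the other 2 lists in both libraries. The respiratory chain list also takes in the Ndufaf assembly factors, most of them below its median, such as Ndufaf4 with 0.62 and 0.33 TPM. Of its genes 6 had 0 counts in both libraries, against 3 ribosomal protein genes and 1 proteasome gene. Its median is therefore not that of chain subunits alone. In each replicate 1 TPM was reached by 77 of the ribosomal protein genes and by 79 of the respiratory chain genes.

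**Figure D2:**
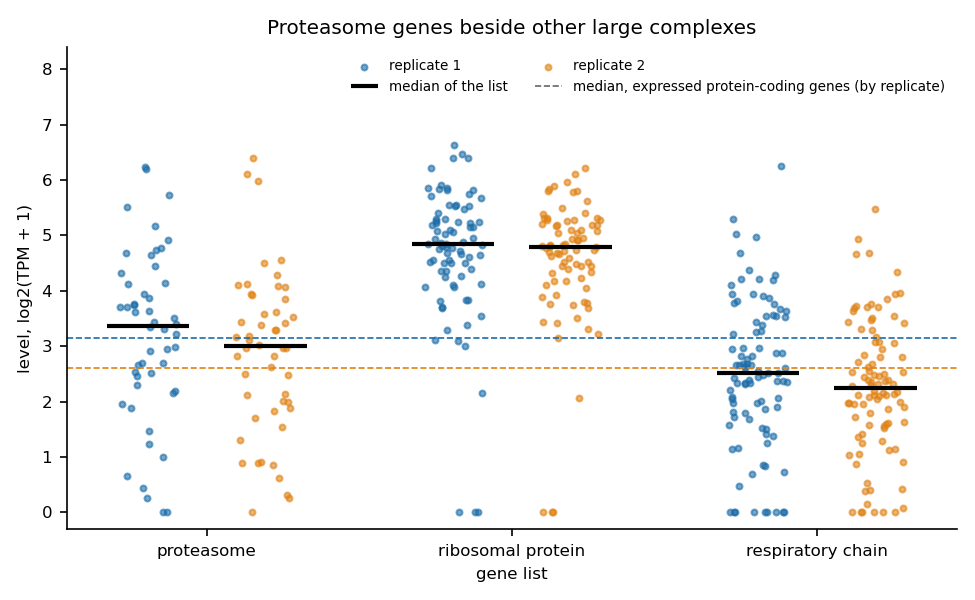
Level of each gene as log2(TPM + 1) for 50 proteasome, 80 ribosomal protein and 94 respiratory chain genes, per replicate. Black bars are list medians, at 3.37 and 3.002 for the proteasome, and dashed lines are the replicates' medians over expressed protein-coding genes.

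The alpha ring genes, whose products form the outer rings and the gate of the core, differed among themselves 11.1-fold in mean TPM although each ring holds every one of them once. Psma3 (alpha7) was highest with 44.83 TPM in replicate 1 and 16.37 in replicate 2. Psma6 (alpha1) had 14.36 and 9.87 TPM and Psma1 (alpha6) 13.65 and 8.84 TPM. Psma7 (alpha4) had 6.71 and 6.83 TPM, Psma5 (alpha5) 4.53 and 3.33 TPM, and Psma2 (alpha2) 3.57 and 1.92 TPM. In the TPM of whole genes Psma3 was above every other alpha gene in both libraries, and Psma2 below every other in the gene tables. The order of the genes between them did not change except that Psma4, with 10.42 and 6.79 TPM, was above Psma7 in replicate 1 and just below it in replicate 2. In the target identifier tables Psma2 had 11.4 and 1.87 TPM and was not the lowest, with 3.30 and 0.99 TPM for Psma5. On protein-coding isoforms only, Psma3 had 10.31 and 2.56 TPM. It was then the highest alpha gene in replicate 1, but in replicate 2 it was below all of them except Psma2. Psma6 was at 6.13 TPM there. Psma8, which takes the place of alpha4 in testis, was at 0.35 and 0.24 TPM.

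Among the beta subunits without a proteolytic site, Psmb4 (beta7) was highest with 16.65 TPM in replicate 1 and 15.92 in replicate 2. Psmb2 (beta4) had 6.51 and 6.07 TPM, Psmb3 (beta3) 5.35 and 2.54 TPM, and Psmb1 (beta6) 4.70 and 2.97 TPM. Psmb4 exceeded the other 3 in both libraries, while Psmb3 and Psmb1 changed places between the libraries. The lead of Psmb4 in replicate 1 depended on the measure. On protein-coding isoforms only, Psmb4 had 3.71 and 6.02 TPM against 3.72 and 4.18 TPM for Psmb2. In CPM it had 7.83 in replicate 1, below Psmb1 with 8.12. Psmb11, the beta5t subunit of thymic epithelium, had 0 expected counts in both gene tables. The other deposited quantification, read from the transcript tables that list target identifiers, gave it 0.83 and 0.18 TPM.

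The catalytic subunits gave 3 different pictures at the 3 sites. The constitutive genes lie on 3 chromosomes, Psmb6 at chr11:70525367-70527858 (plus strand), Psmb7 at chr2:38588036-38644087 (minus strand) and Psmb5 at chr14:54614119-54618022 (minus strand). Psmb8 (chr17:34197721-34201454, plus strand) and Psmb9 lie close together in the class II region of the major histocompatibility complex, and Psmb10 is on chromosome 8. At beta1, Psmb9 had 2.68 TPM in replicate 1 and 3.05 in replicate 2, and Psmb6, the highest of the 50 genes in the gene tables' TPM, had 74.26 and 83.25 TPM. By other measures Psmb6 was not the highest in either library, since Psme2 was above it in the target identifier tables, Psmd8 on protein-coding isoforms and Psme4 in CPM. The immunoproteasome subunit was far below its partner in both libraries, and the log2 ratio of Psmb9 over Psmb6 was -4.79 in replicate 1 (95% interval -5.32 to -4.31) and -4.77 in replicate 2 (-5.03 to -4.52). These intervals start from exact Clopper-Pearson limits on the 2 genes' counts. The limits were then shifted onto the TPM ratio, with the length correction taken as exact, and cover counting error only.

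At beta2, Psmb10 had 12.07 TPM in replicate 1 and 21.73 in replicate 2, and Psmb7 had 12.02 and 7.64 TPM. The pair was level in replicate 1, with a log2 ratio of 0.01 (-0.41 to 0.40), whereas Psmb10 was above Psmb7 in replicate 2, with 1.51 (1.30 to 1.71). The intervals of the libraries do not overlap. At beta5, Psmb8 had 5.45 and 6.05 TPM, and Psmb5 had 3.93 and 3.39 TPM. Psmb8 was above its partner in both libraries, by a log2 ratio of 0.47 in replicate 1 with an interval that includes 0 (-0.18 to 1.15), and by 0.84 in replicate 2 (0.47 to 1.22). Summed over the sites, the 3 immunoproteasome genes made up 18.3% of catalytic beta TPM in replicate 1 and 24.6% in replicate 2. The partners' coding sequences differ enough to be told apart by reads, with identities of 67.5% for Psmb9 and Psmb6, 64.6% for Psmb10 and Psmb7 and 67.6% for Psmb8 and Psmb5 over the aligned bases.

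The order within pairs depended on which isoforms were counted. With protein-coding isoforms only, Psmb9 had 1.48 and 1.91 TPM against 33.58 and 26.02 TPM for Psmb6, so the order at beta1 held. Psmb10 then had 2.14 and 3.15 TPM, below Psmb7 with 5.08 and 4.85 TPM in both libraries. Psmb8 had 1.56 and 0.53 TPM, below Psmb5 with 3.93 and 3.39 TPM in both. The log2 ratios on coding isoforms were -4.50 and -3.77 at beta1, -1.25 and -0.62 at beta2 and -1.33 and -2.68 at beta5, so the direction at beta2 and beta5 turned. The share of the immunoproteasome genes in the catalytic sum was then 10.8% in replicate 1 and 14.0% in replicate 2. This setting was added after the values were seen.

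**Figure D3:**
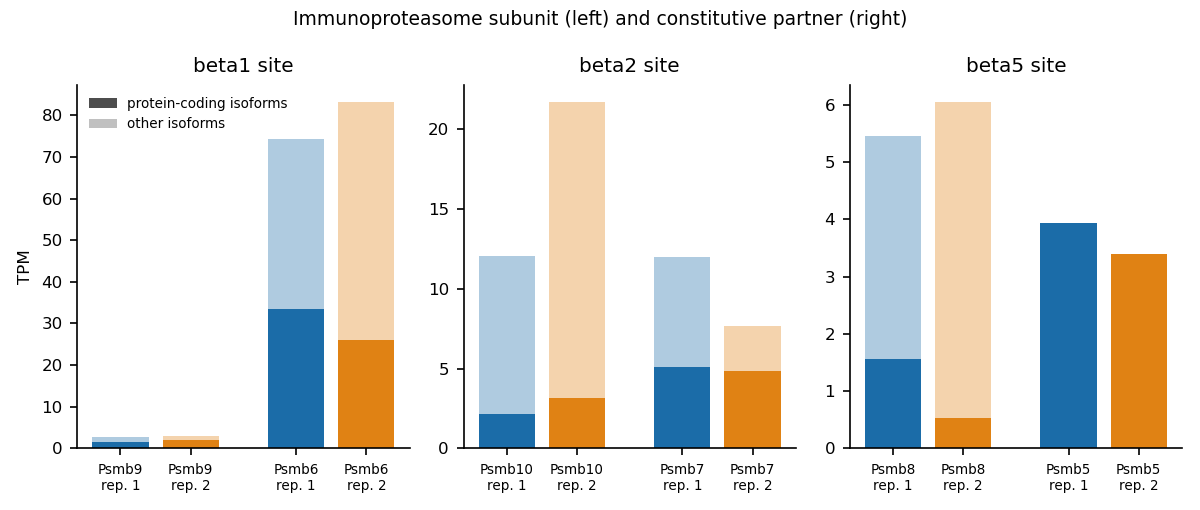
TPM of each immunoproteasome subunit (left in each panel) and its constitutive partner (right) per replicate, with protein-coding isoforms in full colour and other isoforms in pale colour; each panel has its own axis from 0. Psmb10 and Psmb8 are mostly pale, Psmb5 has no pale part, and Psmb6 is above Psmb9 in both libraries by either measure.

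A large part of the immunoproteasome reads lay outside the annotated coding isoforms. The noncoding isoform share is the part of a gene's TPM, in percent, that the transcript tables give to isoforms of any class other than protein-coding. For Psmb10 it was 82.3% in replicate 1 and 85.5% in replicate 2, the largest mean share of TPM among the genes with a mean of at least 1 TPM. For Psmb8 it was 71.4% and 91.2%, all of it in retained-intron isoforms. For Psmb9 it was 44.8% and 37.2%. Psmb10 and Psmb8 were thus above 70% in both libraries while Psmb9 was not. Among the partners, Psmb6 had 54.8% and 68.7%, Psmb7 57.7% and 36.6%, and Psmb5 none.

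Single isoforms carried much of this. Psmb8-205, which retains the intron whose donor site is shown above, held 38.9% of Psmb8 TPM in replicate 1 and 66.8% in replicate 2, whereas the coding isoform Psmb8-203 held 28.6% and 5.45%. The processed transcript Psmb10-203 held 43.3% and 44.6% of Psmb10 TPM, against 17.7% and 14.5% in the only coding isoform, Psmb10-201. The coding isoform Psmb9-204 led Psmb9 with 55.2% and 47.4%, and the retained-intron isoform Psmb9-201 held 16.4% and 24.0%. For Psmb6 the coding isoform Psmb6-201 had 45.2% and 31.3%, and the retained-intron isoform Psmb6-202 had 25.4% and 35.2%. TPM favours short isoforms, so the shares were also taken over expected counts. They were then 60.0% (exact 95% interval 47.1 to 72.0%) and 67.2% (62.1 to 72.0%) for Psmb10, 82.8% (71.3 to 91.1%) and 92.5% (88.3 to 95.6%) for Psmb8, and 48.6% (31.9 to 65.6%) and 56.1% (47.5 to 64.5%) for Psmb9. Among the partners the shares over counts were 52.8% (48.1 to 57.4%) and 66.3% (64.0 to 68.6%) for Psmb6 and 79.2% (73.7 to 83.9%) and 61.2% (56.3 to 65.9%) for Psmb7. Over counts Psmb10 no longer had the largest mean share, with Psmb8, Psmb7, Psma3 (63.8% and 75.2%), Psme2 (64.8% and 64.0%) and Psmb3 (67.3% and 60.5%) above it. Psmb8 was above Psmb9 by both measures in both libraries, and its intervals over counts lie above those of Psmb9. The intervals take the estimated split of reads among isoforms as given, and error in that split lies outside them. In the target identifier tables Psme2, with noncoding shares of TPM of 95.6% and 95.8%, was above Psmb10, with 89.3% and 86.4%.

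Over the whole set, 39 genes had a noncoding isoform and a mean of at least 1 TPM, and 12 of them (30.8%) had a mean share of 50% or more, against 27.0% of the 7677 protein-coding genes that meet the same conditions, which is a similar share. Their median share was 39.6% in replicate 1 and 38.5% in replicate 2, against 31.0% and 33.7% over those genes. In the transcript tables with expected counts, the 6 largest mean shares of TPM belonged to Psmb10, Psmb8, Psma3, Psme2, Psme1 and Psmb4. Psma3 had 77.0% and 84.4%, with 18.4% and 57.5% in the retained-intron isoform Psma3-203. Psme2 had 78.8% and 74.9%, Psme1 69.1% and 77.1%, and Psmb4 77.7% and 62.2%. In Psmb4, 33.6% and 34.7% of TPM came from Psmb4-203, a retained-intron isoform of 292 bases that held 5 counts in replicate 1 and 20.7 in replicate 2. At the other end, Psma5 was at 0% in both libraries, and Psmc1 at 0% and 26.9%. Both ends depended on the quantification. The target identifier tables gave 22.8% and 23.7% for Psma5 and 62.1% and 45.5% for Psmc1. In them Psmc6 (84.9% and 86.4%) and Psmd14 (87.6% and 76.3%) were above Psmb8 (70.3% and 74.8%). Across the 39 genes the mean share had a Spearman rho of 0.448 with the number of annotated noncoding isoforms and of -0.273 with gene span, as a description of points that share both libraries.

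**Figure D4:**
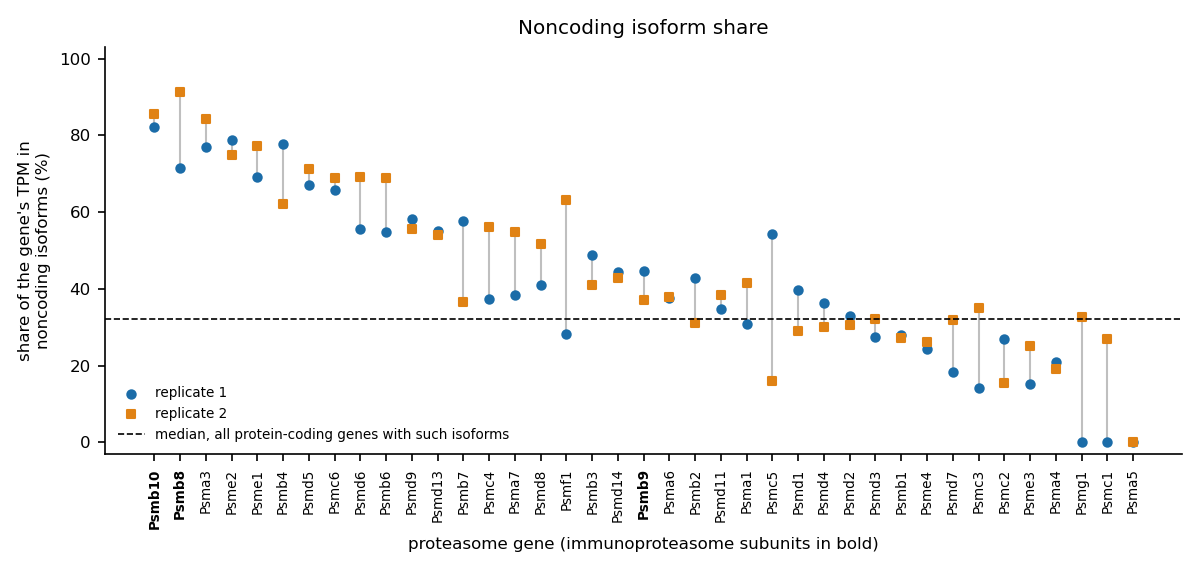
Percent of each gene's transcript TPM in noncoding isoforms, per replicate, for the 39 proteasome genes that have such an isoform and a mean of at least 1 TPM, sorted by mean share. Psmb10 and Psmb8 are at the left end above 70% in both replicates, and the dashed line is the median over all protein-coding genes that meet the same conditions.

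The base of the 19S particle has ATPases and other subunits. The ATPases, which form the ring that threads substrates into the core, spanned 4.21-fold in mean TPM. Psmc6 (Rpt4) had 26.36 TPM in replicate 1 and 16.23 in replicate 2, Psmc1 (Rpt2) 12.60 and 10.54 TPM, and Psmc3 (Rpt5) 11.25 and 10.91 TPM. Psmc4 (Rpt3) had 9.53 and 9.41 TPM, Psmc5 (Rpt6) 6.96 and 5.17 TPM, and Psmc2 (Rpt1) 5.48 and 4.63 TPM. Psmc6 was highest and Psmc2 lowest in both libraries, and Psmc1 and Psmc3 exchanged places. On protein-coding isoforms only, this order did not hold. Psmc6 then had 9.01 and 5.04 TPM, below Psmc1 (12.60 and 7.71 TPM) and Psmc3 (9.65 and 7.08 TPM) in both libraries. In replicate 1 Psmc2, at 4.01 TPM, was then above Psmc5, at 3.19 TPM. The 3 non-ATPase subunits of the base were higher than all ATPases but Psmc6, with 35.10 and 22.57 TPM for Psmd2 (Rpn1), 23.96 and 11.27 TPM for Psmd1 (Rpn2) and 20.79 and 13.41 TPM for Psmd4 (Rpn10), a receptor for ubiquitin chains.

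In the lid, which holds the deubiquitinase, Psmd8 (Rpn12) stood apart with 72.00 TPM in replicate 1 and 62.01 in replicate 2. Psmd14 (Rpn11), the deubiquitinase itself, had 24.79 and 14.44 TPM, and Psmd6 (Rpn7) 19.03 and 15.73 TPM. The lowest were Psmd3 (Rpn3) with 8.98 and 8.06 TPM, Psmd7 (Rpn8) with 9.13 and 6.87 TPM, and Psmd12 (Rpn5) with 8.36 and 4.57 TPM. Psmd8 was higher than every other lid gene in both libraries, and the lid spanned 10.4-fold in mean TPM. The median level of the base genes minus that of the lid genes, on the log2(TPM + 1) scale, was -0.11 in replicate 1 and 0.22 in replicate 2, so its direction changed between the libraries. On protein-coding isoforms only it was 0.18 and 0.39, with the base above the lid in both.

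The activator genes had a median of 25.8 TPM in replicate 1 and 14.2 in replicate 2. Psme2 (PA28 beta) had 51.73 TPM in replicate 1 and 68.01 in replicate 2, and Psme1 (PA28 alpha), with which it forms a heteromeric ring, had 25.77 and 18.46 TPM. Psme2 exceeded Psme1 in both libraries, by 2-fold or more in the TPM of whole genes. On protein-coding isoforms only, Psme2 had 10.98 and 17.04 TPM against 7.97 and 4.23 TPM for Psme1. Psme2 then still led in both libraries, but by less than 2-fold in replicate 1. Psme4 (PA200, a nuclear activator of a single chain) had 29.35 and 14.19 TPM, and Psme3 (PA28 gamma, the nuclear member of the family) had 12.33 and 7.95 TPM. Psme2b, an intronless copy of Psme2, was listed at 9.88 and 7.16 TPM, but its coding sequence matches that of Psme2 at 712 of 717 bases (99.3%) and it lies wholly inside Gm12185, on the same strand, so the split of reads among these genes is uncertain. The median level of Psme1, Psme2 and Psme2b minus that of Psme3 and Psme4 was 0.41 in replicate 1 and 0.74 in replicate 2 on the log2(TPM + 1) scale. It changed sign with protein-coding isoforms only, to -0.58 and -0.13, and with CPM, to -2.04 and -0.99. In the target identifier tables it was -0.41 and 0.16, so that its sign changed in replicate 1. Psmf1 (PI31), which inhibits the core in vitro, had 1.35 and 0.87 TPM.

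The chaperones that build the core were low, with a median of 0.79 and 0.84 TPM. Psmg1 and Psmg2 (PAC1 and PAC2), which assemble the alpha ring as a pair, had 1.76 and 0.85 TPM and 1.00 and 0.82 TPM. Psmg3 (PAC3) had 0.58 and 0.85 TPM, and its partner Psmg4 (PAC4) 0 and 0.54 TPM. These rest on few reads, with 0 to 15 expected counts in replicate 1 and 6 to 36 in replicate 2, so the order among them was not detectable at this depth, and the 0 counts of Psmg4 in replicate 1 allow up to 0.290 CPM. Pomp, the chaperone of the beta ring, is not named by the symbol rule and had 6.82 and 7.01 TPM. The base chaperones were higher, with 4.78 and 2.68 TPM for Psmd10 (gankyrin), 2.90 and 2.28 TPM for Psmd9 (the homologue of yeast Nas2) and 3.47 and 1.46 TPM for Psmd5 (S5b).

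The replicates were compared through the log2 ratio of TPM, replicate 1 over replicate 2, minus the median ratio of the 9158 expressed protein-coding genes. Of the 44 proteasome genes with a mean of at least 1 TPM, none was 2-fold or more higher in replicate 1, against 2.90% of those genes, and 2 were 2-fold or more lower, against 3.77%, both near the background. Those 2 were Psmb10, with a log2 ratio of -1.51, and Psme2, with -1.06, whose reads are shared with Psme2b. In the target identifier tables Psmb10 had -1.15 and Psme2 -0.58, so Psmb10 alone passed 2-fold there. With TMM scaling of the counts 3 genes were 2-fold or more lower, a count for which no share over all genes is given here. Psmb8 had -0.81 and Psmb9 -0.85, so all 3 immunoproteasome subunits were relatively lower in replicate 1. Their partners ranged from -0.83 for Psmb6 through -0.45 for Psmb5 to -0.01 for Psmb7. At the other end, Psma3 had 0.79 and Psmd5 0.59. Of the 44 ratios 32 were below the median and 12 above it, with a median of -0.19, against -0.53 for the ribosomal protein genes and -0.31 for the respiratory chain genes. The 2 libraries also differ in RNA input and depth, and differences between the cultures cannot be told apart from these.

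Gene span moved with this ratio. The 8 proteasome genes that span under 5000 bases, Psmb10, Psmb8, Psmb6, Psmb5, Psmb4, Psme2, Psme1 and Psme2b, were all below the median, with a median ratio of -0.71, against -0.32 over 900 expressed protein-coding genes of that span. Of the 21 that span 5000 to 20000 bases 17 were below it, with a median of -0.25 against -0.13 over 2993 genes. Of the 9 that span 20000 to 50000 bases 5 were below it, with a median of -2.98e-05 against 0.019 over 2693 genes. Of the 6 that span over 50000 bases 2 were below it, with a median of 0.18 against 0.20 over 2572 genes. For these counts below the median no share over all genes of the same span is given here. Spearman's rho between span and ratio was 0.599 over the 44 genes and 0.324 over the expressed protein-coding genes, a description across genes that share the same 2 libraries. The part of span in the immunoproteasome subunits' ratios was not tested.

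**Figure D5:**
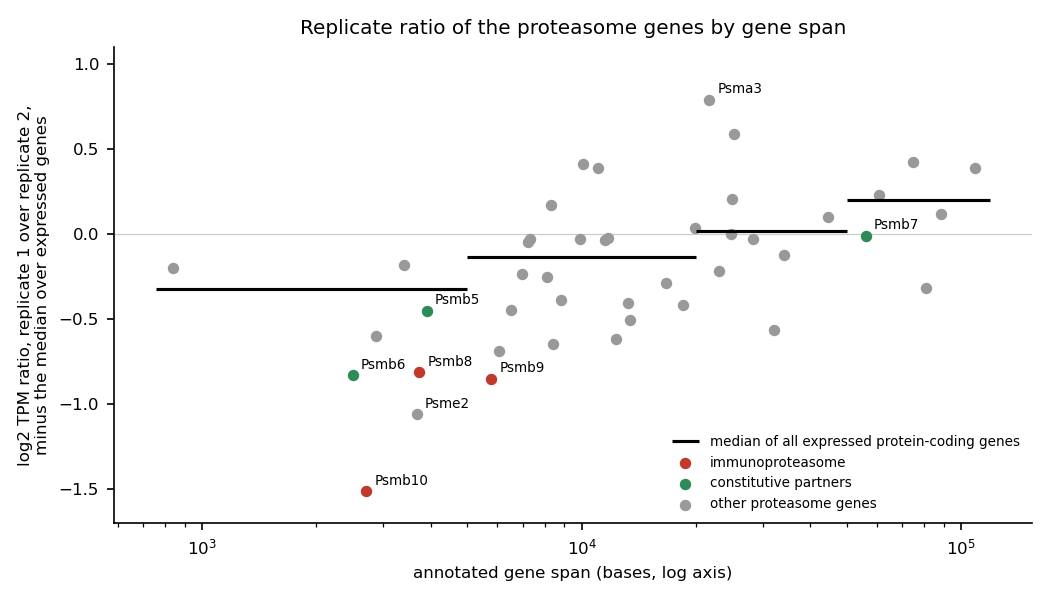
Centred log2 TPM ratio of replicate 1 over replicate 2 against annotated gene span (log axis) for the 44 proteasome genes with a mean of at least 1 TPM; black lines are medians of all expressed protein-coding genes in 4 ranges of span. The short genes Psmb10, Psme2, Psmb6 and Psmb8 lie lowest together with Psmb9, and Psma3 lies highest.

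The other deposited quantification placed 42 of the 44 genes within 2-fold. After the median difference was removed in each library, 2 of the 44 were 2-fold or more higher in the target identifier tables than in the gene tables, against 7.05% of the 9158 expressed protein-coding genes, and none was 2-fold or more lower, against 0.240%. The 2 were Psma2, with a mean log2 difference of 1.84, and Psmd14, with 1.06. For Psma2 the target identifier tables put 87.2% and 79.6% of TPM in the isoform Psma2-202, to which the other transcript tables gave 0% and 14.1%. For Psmd14 they put 87.6% and 76.3% of TPM in noncoding isoforms, against 44.4% and 42.7%. Their ratios at the catalytic sites were -4.71 and -4.81 at beta1, 0.48 and 1.32 at beta2 and 0.77 and 0.72 at beta5 on the log2 scale. The directions at beta1 and beta5 were those of the gene tables in both libraries, while at beta2 the pair had been level in the gene tables of replicate 1.

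Neighbours and overlapping genes bear on several of these values, since the strand setting of the counting is not given in the sources used here. Of the 50 genes 24 overlap another annotated gene and 10 overlap a protein-coding gene on the other strand. Psmb9 (chr17:34181987-34187764, minus strand) shares 212 bases with Tap1 (chr17:34187553-34197225, plus strand), the class I peptide transporter subunit, which had 19.16 and 20.15 TPM against 2.68 and 3.05 TPM for Psmb9. Psmb10 (chr8:105935735-105938444, minus strand) is wholly overlapped by the antisense gene Gm16156, listed at 1.31 and 0.96 TPM. Psmb7 shares 6571 bases with Nek6, at 7.14 and 2.64 TPM, and Psma3 shares 4733 bases with 3110056K07Rik, at 9.02 and 7.11 TPM. How much such overlaps add to the values was not tested.

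Other genes of the pathway, from a list of 33 of which Paaf1 was not matched, were all present. Each of the 32 reached 1 TPM in both replicates. Their median was 20.1 TPM in replicate 1, while replicate 2 had 13.3 TPM. The highest was Irf1, an interferon regulatory factor that drives immunoproteasome genes, with 261.9 and 296.3 TPM. Nfe2l2 (NRF2), a regulator of proteasome genes under oxidative stress, had 156.3 and 103.8 TPM, and Zfand5, a proteasome-binding protein, 67.9 and 30.8 TPM. The lowest were Ubqln4 with 3.26 and 2.93 TPM and Ubqln2 with 2.39 and 1.65 TPM, which shuttle ubiquitinated proteins, and Pithd1 with 1.41 and 1.20 TPM. Irf1 and Nlrc5, a regulator of class I and immunoproteasome genes with 57.17 and 42.15 TPM, stood above all 3 immunoproteasome subunits in both libraries. Tap2, which lies next to Psmb8, had 12.48 and 12.99 TPM.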

How the data were processed

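The deposited gene tables and 1 kind of transcript table give expected counts and TPM, in RSEM's column layout per the file headers. A further kind of deposited transcript table, called target identifier tables here, gives estimated counts and TPM in kallisto's layout. The authors' readme files name mm10 and annotation M21. Not given in the sources used here are the programs, their versions, the strand setting and any filter. Because TPM is scaled by effective length, few reads on a short isoform weigh much. Rows that name no gene (0.504% of the total in replicate 1, 0.0968% in replicate 2) were left out of CPM. Symbols, spans and isoform classes came from GENCODE M21, in which all 55536 gene identifiers were found.

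Levels are log2(TPM + 1), which understates differences among genes of low TPM. Ratios between replicates and between quantifications were centred on the median of protein-coding genes with a mean of at least 1 TPM. Scaling factors for alternatives came from edgeR 4.0.16 and DESeq2 1.42.0 on expected counts rounded to whole numbers; no differential test was run. Other steps used Python 3.11.15, pandas 2.3.3, scipy 1.17.1 and Biopython 1.88. Only the rule for centred ratios between replicates was tested on simulated counts. Values were named by role, with all catalytic subunits, activators and 20S chaperones, and the 3 highest and 3 lowest genes of other lists. Values of some pathway genes are not reported here. The genes, lists and settings were chosen with earlier results of these data known. Intervals and floors express counting error alone, as PCR copies of a molecule could not be recognised. They leave out the error of assigning reads to genes and isoforms.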

Additional observations from a re-analysis of the deposited data

How the results depend on the processing

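With 1 group of 2 libraries, every value is a description of these libraries, and low genes are limited by depth. No paired analysis was possible because there is only 1 group. Levels are given here as the mean of the libraries' medians on the log2(TPM + 1) scale. The pseudocount and the filter on low values cannot change which genes reach 1 TPM. The count of 42 such genes was 34 in the target identifier tables, 47 with TPM rescaled to 1000000 over protein-coding genes and 44 at 1 CPM. No share over all genes is given here under these other settings, so a change in these genes cannot be told from a change of scale. The settings moved the median of expressed protein-coding genes (2.88) by -0.63 (target identifier tables), 2.08 (rescaled TPM) and 1.42 (CPM, with no length correction). The proteasome genes, at 3.19, were at 2.46, 5.30 and 3.63 under these settings, above the shifted median in the first 2 and below it (4.30) with CPM.

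The role lists moved with these scales. In the target identifier tables the medians were 1.78 (immunoproteasome), 2.58 (constitutive catalytic), 2.68 (alpha), 1.97 (noncatalytic beta), 2.60 (ATPases), 3.21 (other base genes), 2.97 (lid), 1.36 (base chaperones), 3.24 (activators) and 0.66 (20S chaperones). With rescaled TPM they were 4.82, 5.54, 5.36, 4.63, 5.62, 6.42, 5.76, 3.84, 6.52 and 2.27 in the same order. With CPM they were 3.22, 4.55, 2.94 (noncatalytic beta), 3.93, 5.77, 4.39, 2.81 and 1.01 (20S chaperones), the alpha and activator lists having moved less than the replicates' spread. A pseudocount of 0.1 gave 2.55 (immunoproteasome), 3.36 (ATPases), 1.54 (base chaperones) and -0.15 (20S chaperones). The single 20S chaperone left by the filter on low values had 1.18.

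The log2 ratio of Psmb9 over Psmb6 was -4.76 in the target identifier tables, -3.58 with CPM, -4.73 with the pseudocount of 0.1 and -4.14 on coding isoforms, against -4.78. That of Psmb10 over Psmb7 (0.76) reversed to -1.08 with CPM and -0.93 on coding isoforms. That of Psmb8 over Psmb5 (0.65) was 1.28 with CPM and reversed to -2.01 on coding isoforms. The immunoproteasome list minus its partners was -0.65 and became -1.33 with CPM. Base minus lid (0.05) reversed to -0.10 in the target identifier tables and -0.070 with CPM, and ran from -0.11 to 0.22 when either replicate was left out. On coding isoforms it kept its direction, at 0.29. The contrast of Psme1, Psme2 and Psme2b with Psme3 and Psme4 (0.58) reversed to -0.13, -1.52 and -0.36 in the target identifier tables, with CPM and on coding isoforms. Without Psme2 and Psme2b it stayed at 0.58, since Psme1 is the median gene. Genes 2-fold lower in replicate 1 numbered 1, against 2, by the target identifier quantification, 3 with TMM, 3 where a minimum of 10 counts was required in each library, and 2 with DESeq2 size factors. For these counts of genes no share over all genes under the same setting is given here. The median noncoding share (41.0%) was 53.6% in the target identifier tables, against 45.1% over all genes there. It was 35.4% over expected counts, against 16.6%, and 38.5% to 39.6% in single replicates. There 20 genes (of 39) had 50% or more in the target identifier tables, against 43.5% of all genes. Genes 2-fold higher in the target identifier tables numbered 1 to 3 in single replicates, again with no share over all genes given here. The causes of these changes were not tested.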

Other observations

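Among the pathway genes not described above, the ATPase Vcp, which extracts ubiquitinated proteins for the proteasome, had 52.69 TPM in replicate 1 and 35.45 in replicate 2. The ubiquitin genes Rps27a and Ubb had 38.17 and 41.35 TPM, and 37.68 and 32.58 TPM. The ubiquitin-activating enzyme Uba1 had 15.30 and 12.54 TPM. The remaining regulatory particle subunits with other symbols were Sem1, a small lid subunit, with 21.07 and 12.61 TPM, and the ubiquitin receptor Adrm1 with 14.31 and 18.34 TPM. Of the genes that control NRF1, Ngly1 had 17.81 and 5.62 TPM and Ddi2 5.76 and 3.58 TPM, and Nfe2l1, which encodes NRF1, had 36.77 and 31.95 TPM. Adrm1 (centred log2 ratio of replicate 1 over replicate 2 of -1.02) and Ngly1 (1.00) stood at opposite ends of the pathway list between the replicates. These genes were named after their values were seen.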
